A study of Mus musculus with 3 samples.

Results

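The mitochondrial ribosomal protein genes were taken as all genes on the array whose name begins with Mrpl or Mrps followed by a number. The rule gave 75 genes of the 14562 genes that had a level, read by 125 probes. The Mrpl names (46 genes) stand for the large subunit and the Mrps names (29 genes) for the small one. RefSeq gave the same symbol for all 75, and the genes lie on 17 chromosomes, with 10 of them on chromosome 11. All 75 had a probe well above background on each of the 3 arrays. A further 3 genes that RefSeq now calls Mrpl42, Mrpl57 and Mrpl58 carry older names on the array and fall outside the rule.

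Mitochondria keep a small genome of their own that encodes core subunits of the respiratory chain and of ATP synthase, and these are made on a separate ribosome inside the organelle. The RNA of that ribosome comes from mitochondrial DNA, while all of its proteins are encoded in the nucleus, made in the cytosol and imported. Its proteins must therefore be supplied in step with each other and with RNA made in another compartment. A name does not always give the place: in structures of the mammalian ribosome the proteins of Mrps18a and Mrps30 sit in the large subunit, and the Mrps36 protein is now known as part of the alpha-ketoglutarate dehydrogenase complex.

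Peritoneal macrophages of male Swiss albino mice aged 8 weeks were compared on 1-colour arrays in 3 groups of 10 animals, with 1 array per group. All mice were given 125 µg lipopolysaccharide into the peritoneum on day 0, to draw in macrophages. On day 4 the control group was given 100 ng of the phorbol ester TPA (12-o-tetradecanoyl phorbol 13-acetate), and the other groups received the same TPA with hexavalent chromium. The doses were 35 nmol and 70 nmol, which the protocols state as K2Cr2O7 (potassium dichromate) and the sample labels as Cr(VI). Cells were collected 4 days later. Every group had thus been exposed to lipopolysaccharide and TPA, and no untreated cells were among the samples. Whether an array carried RNA of 1 animal or of a pool is not settled by the labels, and arrays with lipoic acid, which the series title names, were not analysed here.

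Of 41174 probes, 20200, 18907 and 18564 were well above background on the control, 35 nmol and 70 nmol arrays. All 10 macrophage markers, among them Adgre1, Csf1r and Lyz2, were well above background on each array, and their summed signal lay between 9.47 and 9.62 (log2, scaled) on the 3 arrays. Lyz2, the brightest of them, was not among the 9 that passed the rule against saturated and outlier spots, so the steady sum is a weak check. The 9 had a median shift from all genes of 0.06 at 70 nmol and -0.06 at 35 nmol against the control. Single markers moved either way: Adgre1 was at 7.67 in the control and 7.16 at 70 nmol, Fcgr1 at 4.57 and 5.33. Markers of other cells were present as well and differed between the arrays. Outside the macrophage sets the B cell markers had the highest summed signal on the control and 35 nmol arrays (8.03 and 7.98). On the 70 nmol array they were at 7.67, under the monocyte markers. The monocyte markers were at 7.24, 7.84 and 7.77 and the neutrophil markers at 2.88, 2.21 and 3.65. S100a9 was the brightest neutrophil marker (2.36, 1.11 and 3.37), and the others moved either way. At 70 nmol Cxcr2 and Lcn2 were lower than in the control, and S100a8 and Retnlg were higher. Of 8 hepatocyte markers, 7, 7 and 1 were well above background on the control, 35 and 70 nmol arrays, with summed signals of 4.43, 6.07 and -1.45. The summed signal of 6 fibroblast markers was 3.26, 3.44 and 5.03 in the same order, that of the mast cell markers 4.61, 3.75 and 2.91, and that of the erythroid markers 6.07, 3.54 and 5.14. Of 8 markers of large resident peritoneal macrophages, the 7 measured, among them Garnl3 and Alox15, had a median shift from all genes of -1.15 at 70 nmol and -0.32 at 35 nmol against the control, and each was lower than in the control at both doses. Alox15, a lipoxygenase of these cells, had levels of 6.31, 6.11 and 4.66 on the control, 35 and 70 nmol arrays. The summed signal of all 8 was 9.09, 9.16 and 8.73, carried by the bright Icam2 probe, which was not among the 7. Icam2 (7.86, 8.22 and 8.10) did not pass the rule against saturated and outlier spots, so this sum is not read as a difference. The part of these cells in the values below was not tested, and in such bulk RNA fewer cells of a type and less RNA per cell cannot be told apart.

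Levels are log2 processed signals minus the 75th percentile of the array, so a level of 0 lies at that percentile, and a difference of 1 is 2-fold. A gene was read by its brightest probe, and levels of different genes rest on different probes and are not set against each other here. With 1 array per group no difference has a replicate check and no test was possible, so the number of arrays limits the precision. The errors given are technical. Repeated spots of a probe had a standard deviation of 0.0435, 0.0445 and 0.0340 (log2) on the control, 35 nmol and 70 nmol arrays, and the scanner software's own error of a member's difference had a median of 0.20. Both comparisons with the control share the control array, so their values are given side by side and are not independent.

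The levels of mitochondrial ribosomal protein transcripts were close to each other on the 3 arrays. At 70 nmol against the control, 0 of 75 genes differed by 2-fold or more, beside 2.71% of the 12541 genes measured in that comparison. A single gene, Mrps18b, differed by 1.5-fold or more (0.585 on the log2 scale), in the upward direction. Of all measured genes 9.38% did so, 5.55% upward and 3.83% downward. At 35 nmol against the control, 0 of 75 reached 1.5-fold, beside 4.89% of 12730 genes at 1.5-fold (2.96% higher, 1.92% lower) and 1.42% at 2-fold. Between 70 and 35 nmol it was again 0 of 75, beside 6.51% of 12387 genes at 1.5-fold (3.67% higher, 2.85% lower) and 1.64% at 2-fold. A difference above the scanner error was found for 12 of 75 genes at 70 nmol (40.7% of all genes), for 11 at 35 nmol (29.4%) and for 8 between the doses (33.2%).

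**Figure D1:**
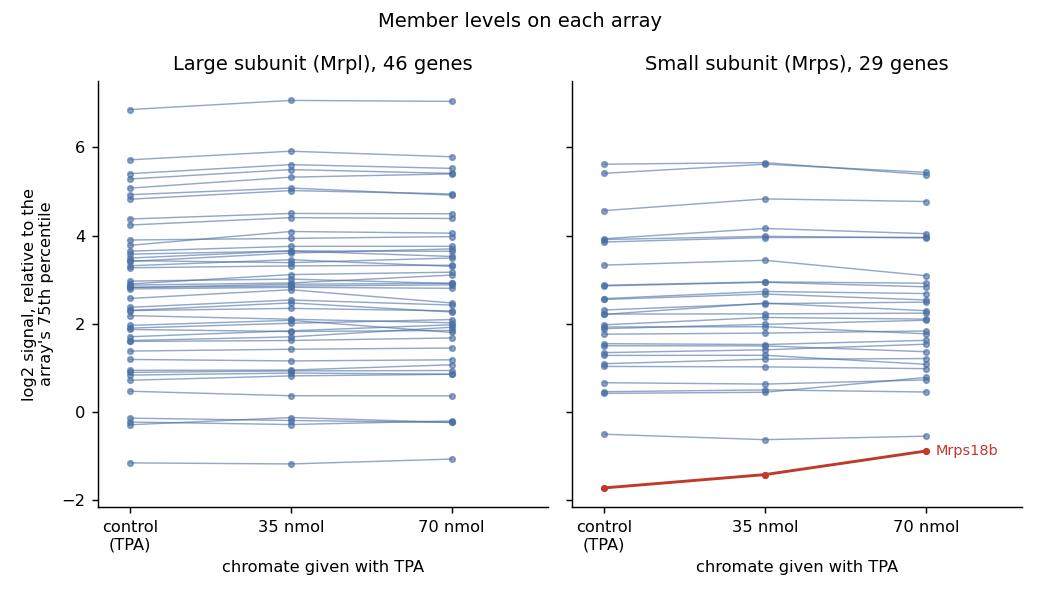
Each line is 1 gene, drawn from its brightest probe. The horizontal axis gives the array (control, 35 nmol, 70 nmol) and the vertical axis the log2 signal relative to the 75th percentile of that array. The left panel holds the 46 Mrpl genes and the right panel the 29 Mrps genes. Nearly all lines run flat, and Mrps18b, in red, is the line with the steepest climb, to -0.89 at 70 nmol against -1.72 in the control.

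The median difference of the large subunit genes was 0.07 at 70 nmol and 0.09 at 35 nmol against the control, and that of the small subunit genes was 0.06 and 0.08. Over all measured genes the medians were 0.04 at both doses. The large subunit median thus lay 0.03 (70 nmol) and 0.05 (35 nmol) above that of all genes, and the small subunit median 0.03 and 0.04 above it. The sign of these 4 shifts was not stable: removing the filter on dim probes turned all 4 negative. The members' own medians did not move there, while the all-gene median rose to 0.14 (70 nmol) and 0.12 (35 nmol) as undetected genes were counted. Normexp background correction turned 3 of the 4 shifts slightly negative. With scaling on spike-in RNA the all-gene medians became -0.32 (70 nmol) and -0.38 (35 nmol) and the members' medians -0.29 and -0.34. The sign of the members' own medians thus depends on the constant taken off each array, which leaves their distance to all genes as it is. Under spike-in scaling every member was below the control at 35 nmol, the highest being Mrpl12 at -0.11. Relative to the all-gene median, 46 members lay above and 29 below at 70 nmol, and 50 above and 25 below at 35 nmol. Between 70 and 35 nmol the medians were -0.0048 for the large and -0.0369 for the small subunit, against 0.0016 for all genes. On this scale the control array gave the lowest of the 3 levels for 47 of the 75 genes (41.9% of all 12326 genes measured on the 3 arrays) and the highest for 8 (27.8% of all genes). By definition these 47 members are the ones with positive differences at both doses, and the 8 those with negative differences at both. The signs are thus the same counts again and no second result.

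The members also lay close to each other. At 70 nmol the standard deviation of their differences was 0.16, against 0.38 over all genes, and their interquartile range was 0.14, against 0.34. At 35 nmol the standard deviation was 0.10 for the members and 0.30 for all genes. Differences under 0.2 either way were found for 62 of 75 members at 70 nmol (55.4% of all genes) and for 64 at 35 nmol (66.0%). Brighter probes vary less, and 66 of the 75 members lie at or above the median of the detected probes. Among genes that bright on every array, the standard deviation at 70 nmol was 0.13 for 66 members and 0.28 for 6900 genes, and at 35 nmol 0.09 and 0.19. The narrower spread of the members was thus also seen among bright genes, with no test of it. It was not particular to them: nuclear genes for the respiratory chain and ATP synthase had a standard deviation of 0.12 at each dose.

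**Figure D2:**
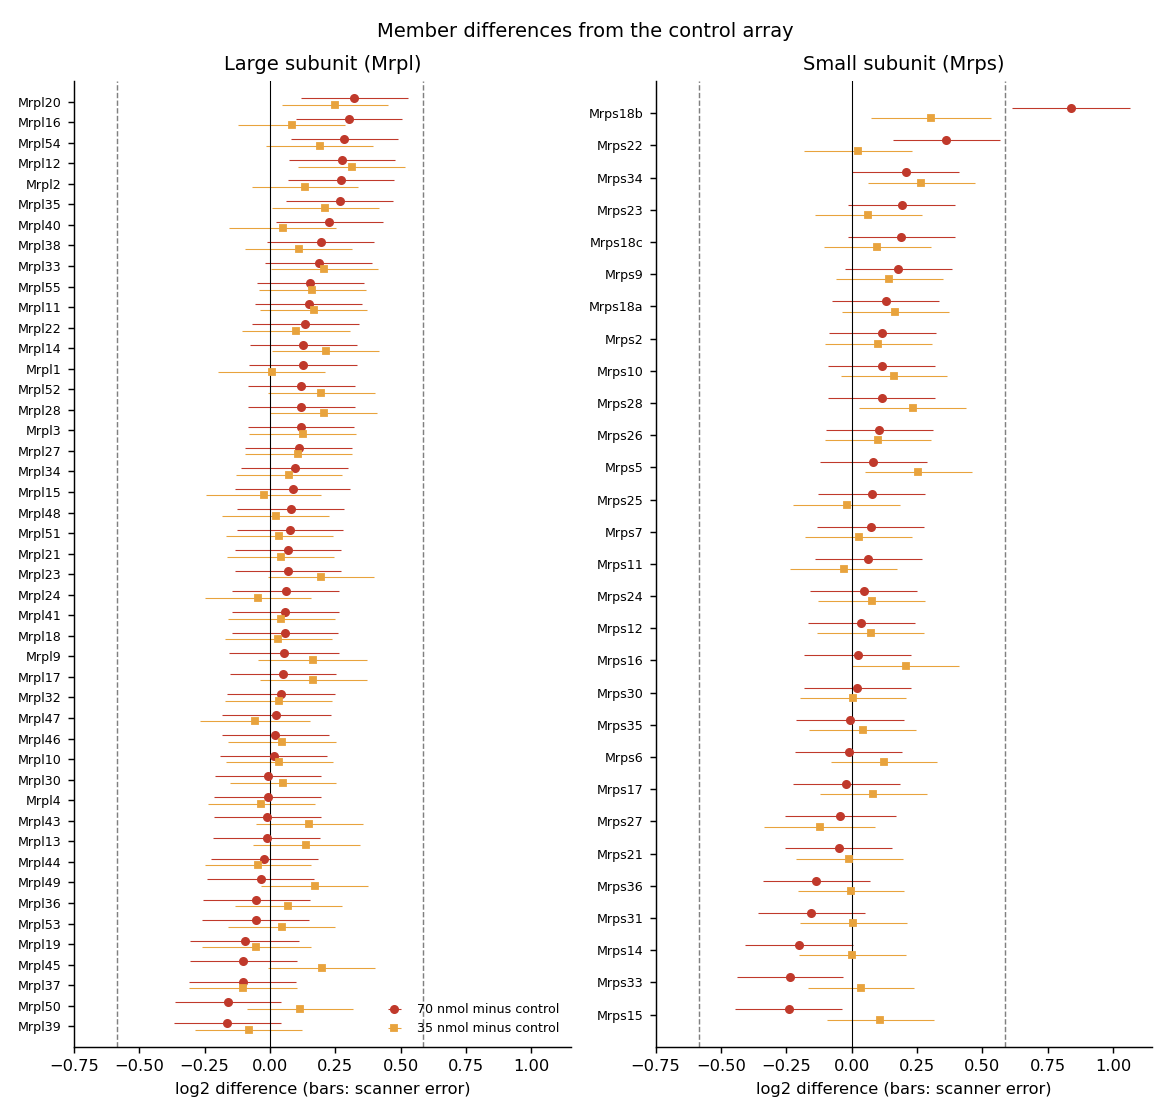
Each row is 1 gene, ordered by its difference at 70 nmol, with large subunit genes at left and small subunit genes at right. The horizontal axis is the log2 difference from the control array for 70 nmol (red circles) and 35 nmol (yellow squares), the bars are the scanner error, and the dashed lines mark 1.5-fold. Mrps18b at 70 nmol (0.84) is the single point beyond a dashed line.

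Among large subunit genes the highest differences at 70 nmol belonged to Mrpl20, Mrpl16, Mrpl54, Mrpl12 and Mrpl2. Mrpl20, whose bacterial counterpart acts early in assembly of the large subunit, had levels of 5.08, 5.33 and 5.40 on the control, 35 and 70 nmol arrays. Both dosed arrays were above the control, with differences of 0.32 (70 nmol) and 0.25 (35 nmol) and a scanner error of 0.20 each. Mrpl12 is the L7/L12 protein of the stalk that receives translation factors. Its levels were 3.78, 4.09 and 4.06, which is 0.28 (70 nmol) and 0.31 (35 nmol) above the control, the highest value of any member at 35 nmol. The genes of the proteins that hold this stalk had smaller differences. Mrpl10, its anchor, was at 0.01 (70 nmol) and 0.04 (35 nmol), and Mrpl11, at the stalk base, at 0.15 and 0.17.

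Mrpl16 and Mrpl2 are counterparts of bacterial proteins that lie near the peptidyl transferase centre, where peptide bonds are formed. Mrpl16 had levels of 1.62, 1.70 and 1.92 and was 0.30 above the control at 70 nmol and 0.08 at 35 nmol. Mrpl2 had levels of 1.71, 1.84 and 1.98, with differences of 0.27 and 0.13. In both genes the 70 nmol array was the highest and the control the lowest. Mrpl54, a protein of the mitochondrial ribosome, was at 3.41, 3.60 and 3.70, that is 0.28 and 0.19 above the control. Mrpl40 was 0.23 above the control at 70 nmol and 0.05 at 35 nmol, and all 3 of its probes were above the control at 70 nmol (0.17 to 0.35).

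The lowest large subunit differences at 70 nmol were -0.16 in Mrpl39 and Mrpl50 and -0.10 in Mrpl37, Mrpl45 and Mrpl19, all within the scanner error. Mrpl39, whose protein shares a fold with threonyl-tRNA synthetase, had levels of 2.18, 2.10 and 2.02, with the control highest. Mrpl37 (-0.10 at 70 nmol and -0.10 at 35 nmol) and Mrpl19 (-0.10 and -0.05) were likewise highest in the control. Mrpl45, whose protein lies at the exit tunnel and faces the inner membrane, had levels of 2.57, 2.77 and 2.47. It was 0.30 lower at 70 than at 35 nmol, the largest step down between doses in the large subunit, and Mrpl50 (-0.27) and Mrpl49 (-0.21) were next. A second Mrpl45 probe went the other way between the doses, by 0.47, and a second Mrpl50 probe was at 0.29 at 70 nmol against the control, where the brightest was at -0.16.

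In the small subunit, Mrps22 had the second highest difference at 70 nmol. Its levels were 0.42, 0.45 and 0.78, so that only the 70 nmol array stood above the others, by 0.36 from the control and 0.34 from 35 nmol (scanner error 0.21). Mrps22 is a protein special to the mitochondrial ribosome, and in people mutations in it cause a respiratory chain disorder. Mrps34 was at 4.57, 4.83 and 4.77, 0.21 above the control at 70 nmol and 0.27 at 35 nmol. Mrps5, the counterpart of a bacterial protein that affects decoding accuracy, was 0.25 above the control at 35 nmol and 0.08 at 70 nmol. The other detected Mrps5 probes were at 0.07 and 0.00 at 35 nmol, and at 0.07 and -0.13 at 70 nmol. Mrps28 (0.23 at 35 nmol) and Mrps16 (0.21) also had their highest level at 35 nmol. Mrps12, whose bacterial counterpart also takes part in decoding, differed by 0.04 at 70 nmol and 0.07 at 35 nmol.

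The lowest values at 70 nmol in either subunit were in Mrps15 and Mrps33. Mrps15, whose bacterial counterpart binds the small subunit RNA early in assembly, had levels of 3.33, 3.44 and 3.09. It lay 0.24 under the control at 70 nmol and 0.11 above it at 35 nmol, and the step of -0.35 between the doses was the lowest of all members. Mrps33 had levels of 5.62, 5.66 and 5.38, with -0.24 at 70 nmol and 0.04 at 35 nmol. Its 3 probes were at -0.24, -0.20 and -0.10 at 70 nmol. Mrps14 followed with levels of 1.28, 1.28 and 1.08 (-0.20 at 70 nmol), then Mrps31 (-0.15) and Mrps36 (-0.14). By the brightest probe all 5 of these genes had their lowest level at 70 nmol. A second Mrps36 probe was lowest in the control and at 0.03 at 70 nmol. At 35 nmol the lowest member was Mrps27, which codes for a protein with pentatricopeptide repeats, at -0.12. Only Mrps15 and Mrps33 of these genes passed their scanner error of 0.20.

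Mrps18b was the exception in size. The processed signal of its brightest probe was 81.4 in the control sample, 76.8 after 35 nmol and 116 after 70 nmol, which after scaling gave levels of -1.72, -1.42 and -0.89. The difference was 0.84 at 70 nmol against the control, or 1.79-fold, with a scanner error of 0.23. It was 0.30 at 35 nmol against the control and 0.53 between 70 and 35 nmol. At 35 nmol the unscaled signal was thus under that of the control, and the sign of that difference comes from the scaling. The same is true of every member with a positive difference at 35 nmol. At 70 nmol the difference exceeded that of 97.4% of all measured genes, and it was 0.53 with normexp background correction and 0.48 with spike-in scaling, both short of 1.5-fold. The level of -1.72 was the dimmest of the 75 probes used, still above the lowest signal counted as detected on the control array (-3.65).

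The probe of Mrps18b lies on chromosome 17 from 35522421 to 35522569 on the minus strand (build mm8, from the array file). It covers 149 bases of the genome with 60 bases of probe, and its place relative to exons was not analysed here. A pair of other probes carries the same gene name, but both map to the plus strand, opposite to the RefSeq gene. The first had levels of -3.07, -3.11 and -3.18, a difference of -0.11 at 70 nmol, and the second was not well above background on any array. Of 114 member probes whose strand could be set against that of the gene, these 2 and 1 of Mrps30 were the only ones on the opposite strand. The value of Mrps18b therefore rests on 1 probe, with no second probe on its own strand to set beside it.

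Mrps18a and Mrps18c are the paralogs of Mrps18b. All 3 proteins descend from the bacterial protein S18 and are found together in the same mitochondrial ribosome. Mrps18a had levels of 1.98, 2.14 and 2.11, which is 0.13 (70 nmol) and 0.17 (35 nmol) above the control. Mrps18c had levels of 1.89, 1.99 and 2.08, or 0.19 and 0.10 above the control, and its second probe gave 0.15 and 0.03. Neither paralog reached its scanner error of 0.20.

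**Figure D3:**
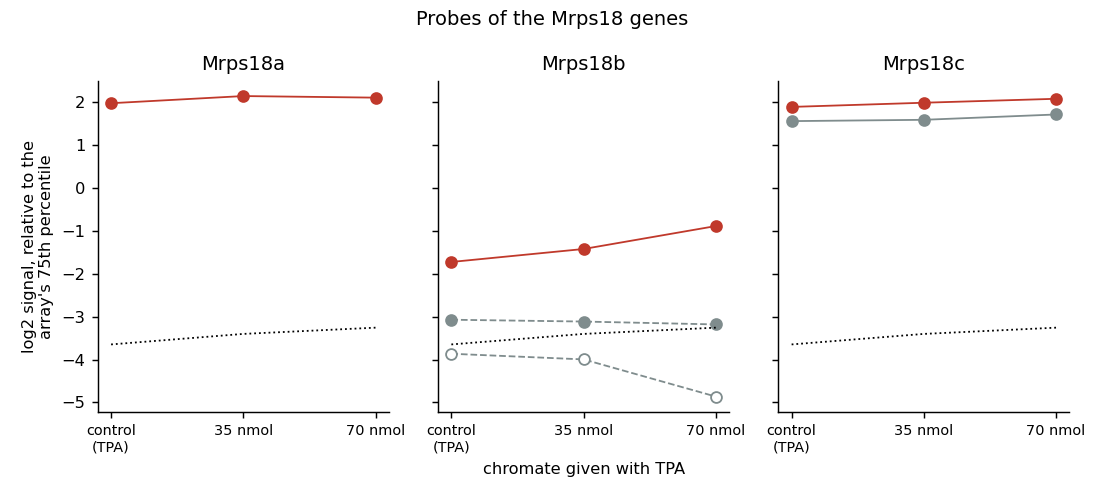
Every probe of Mrps18a, Mrps18b and Mrps18c is drawn over the control, 35 nmol and 70 nmol arrays, with the log2 signal relative to the 75th percentile of the array on the vertical axis. Red marks the probe used for the gene, grey another probe, a dashed line a probe on the strand opposite to the gene, an open circle a signal not well above background, and the dotted line the lowest detected signal of each array. The probe used for Mrps18b climbs by 0.84 to 70 nmol, while the lines of Mrps18a and Mrps18c move by at most 0.19.

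How far 2 probes of a gene differ gives another measure of technical spread. Leaving out probes on the opposite strand, 25 genes had 2 or more measured probes at 70 nmol against the control. Their differences lay a median of 0.16 apart, and in 13 of the 25 genes the probes had opposite signs. Gaps over 0.5 were seen in Mrpl1, Mrpl35 and Mrps2. In Mrpl35 the brightest probe gave 0.27 and a dimmer one -0.34, and in Mrps2 the probes gave 0.12, 0.14 and 0.66, the last from a probe that was not detected at 35 nmol. At 35 nmol the median gap was 0.12 over 26 genes, with opposite signs in 11, and the widest gap was in Mrpl45 (0.55). The difference of the probe used was smaller than this median gap in 56 of the 75 members at 70 nmol and in 46 at 35 nmol.

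**Figure D4:**
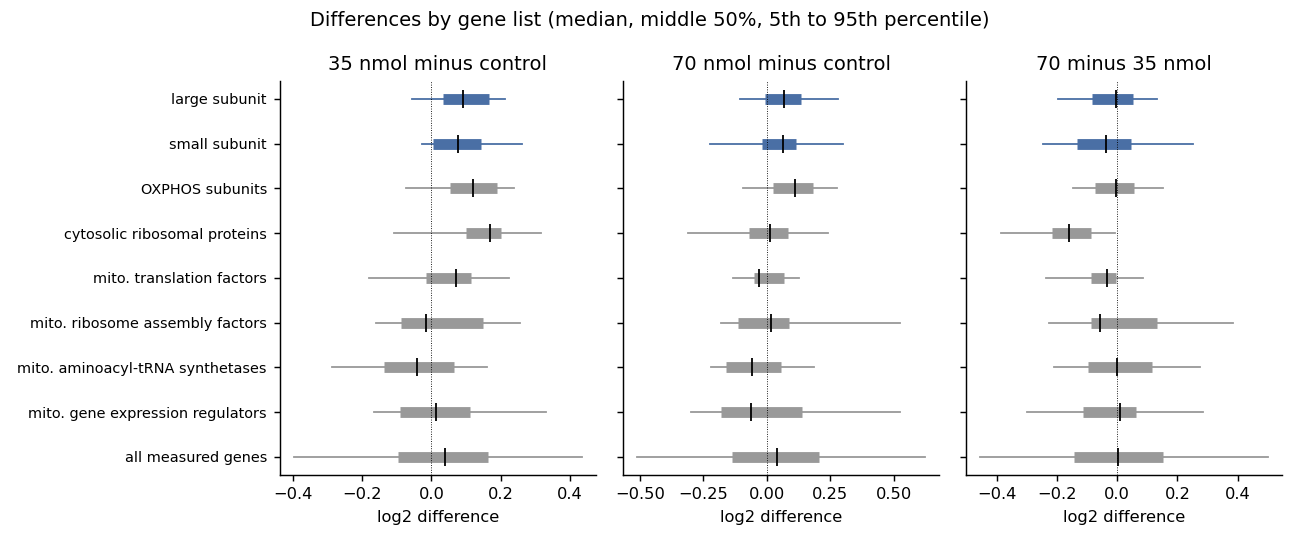
For each gene list the black tick is the median log2 difference, the thick bar the middle 50% and the thin line the 5th to 95th percentile, with 35 nmol minus control, 70 nmol minus control and 70 minus 35 nmol in the panels from left to right. OXPHOS subunits are those of the respiratory chain and ATP synthase. Blue bars are the 2 ribosomal subunits, grey bars the other lists and all measured genes. The horizontal scales differ between panels. Both subunits form narrow bars near 0 beside the wide bar of all genes (standard deviations of 0.12 and 0.20 against 0.38 at 70 nmol). The other lists also spread less than all genes at 70 nmol, from 0.09 (translation factors) to 0.33 (regulators of mitochondrial gene expression).

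Other genes of the same pathway were set beside the members as lists. Of 7 genes that the array names without the Mrp stem, 6 code for proteins of the mitochondrial ribosome and the seventh, Oxa1l, for the insertase that takes up its products. Their median was 0.08 at 70 nmol and 0.19 at 35 nmol against the control, and 0 of 7 reached 1.5-fold. Gadd45gip1 had the highest values of them (0.26 and 0.39) and Ptcd3 the lowest (-0.17 and -0.01). Mrpl58, a peptidyl-tRNA hydrolase that rescues stalled ribosomes, was at 0.08 and 0.12. The 13 translation factors had medians of -0.03 and 0.07, with the elongation factor Tufm at 0.13 and 0.08 and the initiation factor Mtif2 at -0.17 and -0.13. At 35 nmol the highest of them was Mrrf at 0.28 (-0.04 at 70 nmol) and the lowest Mtfmt at -0.25 (-0.10 at 70 nmol).

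Of 20 assembly factors, 18 were measured, with medians of 0.02 at 70 nmol and -0.01 at 35 nmol. Mettl17 was the single one past 1.5-fold, at 0.73 and 0.26 from a dim probe (levels of -2.66, -2.40 and -1.93), and Mpv17l2 was next at 0.49 and 0.26. The lowest at 70 nmol was Mrm2, a methyltransferase for the large ribosomal RNA, at -0.31 (-0.16 at 35 nmol), and the lowest at 35 nmol was Tfb1m at -0.18 (-0.03 at 70 nmol). Mitochondrial aminoacyl-tRNA synthetases, of which 19 were measured, had medians of -0.06 and -0.04. In that list Nars2 passed 1.5-fold at 35 nmol (-0.70, against -0.25 at 70 nmol), also from a dim probe (levels of -2.05, -2.75 and -2.30).

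The 14 measured regulators of mitochondrial gene expression had medians of -0.06 at 70 nmol and 0.01 at 35 nmol, with 1 past 1.5-fold at 70 nmol. This was Ppargc1b, which codes for the coactivator PGC-1beta. Its levels were 0.66, 1.04 and 1.55, so that the control was lowest and 70 nmol highest, with differences of 0.89 and 0.38. Its other probes, all detected on every array, gave 0.62 and 0.52 at 70 nmol and 0.35 and 0.39 at 35 nmol. Esrra, a nuclear receptor that works with PGC-1 coactivators, was at 0.33 and 0.30, and Pprc1 at 0.30 and 0.22. The transcription factor Nrf1 was at -0.15 and -0.13, Gabpa at 0.07 and 0.00 and its partner Gabpb1 at -0.40 and -0.04. The Gabpb1 values came from a dim probe (levels of -2.10, -2.14 and -2.49). Tfam, which packages mitochondrial DNA, was at 0.10 and -0.06.

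The nuclear genes for subunits of the respiratory chain and ATP synthase, which are joined with the products of the mitochondrial ribosome, also had differences near 0. Of these, 75 were measured, with medians of 0.11 at 70 nmol and 0.12 at 35 nmol, standard deviations of 0.12 at each dose and 0 past 1.5-fold at either. The cytosolic ribosomal proteins, taken by their Rpl and Rps symbols, could be followed less well. By symbol the list also holds Rps19bp1, named as a binding protein of Rps19, and like-named genes such as Rpl39l and Rps4l. Rps4l gave its lowest value at 70 nmol against the control (-0.64). Of 84 with a level, 42 had a probe that was saturated on at least 1 array, and the 42 measured had medians of 0.01 at 70 nmol and 0.17 at 35 nmol. Between 70 and 35 nmol their median was -0.16 over 45 genes, with 2 above the all-gene median. In the same comparison the mitochondrial ribosomal proteins had a median of -0.02, with 33 of 75 above.

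Promoter windows were examined because the members stayed close to each other. RefSeq's promoter table (assembly GRCm38.p6) held 72 windows for 66 of the 75 genes, each from 250 bases before to 50 after a start. Exact letters were searched on both strands for NRF1 (GCGCANGCG), for ETS factors such as GABPA (CCGGAAGT), for YY1 (AAGATGGCG) and for the E-box (CACGTG). Motifs can overlap in a window, and a match is a description of letters, not a binding site. Some genes have several overlapping windows, as Mrpl2 with 3 that share 1 E-box, so each gene was counted once, with a match in any of its windows. The NRF1 letters were found in 22.7% of the 66 members, against 7.03% of all 27025 genes of the table and 9.63% of its protein-coding genes. The ETS letters were in 18.2%, against 4.31% and 5.69%, and the YY1 letters in 10.6%, against 1.64% and 2.14%. The E-box was in 5 members (7.58%), against 8.09% and 8.91%. At least 1 of the 4 was in 34 of 66 members (51.5%), against 18.4% of all genes and 22.7% of protein-coding genes. By window it was 36 of 72 (50%), against 16.5% of all 32851 windows.

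At least 1 of the 4 was in 24 of 40 large subunit genes and in 10 of 26 small subunit genes. Members' windows were richer in G and C, with a median of 58.5% against 52.7% in all windows and 56.3% in those of protein-coding genes. The part of base composition in these shares was not tested. Several members hold more than 1 match: Mrps26 has both NRF1 and ETS letters, Mrps27 has ETS and YY1 letters, and Mrpl36 and Mrpl37 each have YY1 letters and an E-box.

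The windows of 4 genes are shown because they bound the range of values: Mrps18b, Mrps22 and Mrps15 have the highest, second highest and lowest difference of all members at 70 nmol, and Mrpl12 the highest at 35 nmol. Each is given 5′ to 3′ on the strand of the gene from RefSeq, build GRCm38.p6, with matches in capitals. Mrps18b is at chr17:35916391-35916690 on the minus strand (NRF1 letters from base -224), Mrps22 at chr9:98601630-98601929 on the minus strand (ETS letters from base -11), Mrpl12 at chr11:120484387-120484686 on the plus strand (NRF1 letters from base -80) and Mrps15 at chr4:126046678-126046977 on the plus strand (no match to these letters).
Mrps18b: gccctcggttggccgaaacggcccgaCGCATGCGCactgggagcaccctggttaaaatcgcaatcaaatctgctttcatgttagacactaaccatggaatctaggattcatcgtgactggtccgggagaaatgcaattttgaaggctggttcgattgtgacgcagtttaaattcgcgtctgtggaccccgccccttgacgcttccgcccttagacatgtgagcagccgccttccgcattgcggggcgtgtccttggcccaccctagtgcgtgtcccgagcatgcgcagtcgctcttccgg
Mrps22: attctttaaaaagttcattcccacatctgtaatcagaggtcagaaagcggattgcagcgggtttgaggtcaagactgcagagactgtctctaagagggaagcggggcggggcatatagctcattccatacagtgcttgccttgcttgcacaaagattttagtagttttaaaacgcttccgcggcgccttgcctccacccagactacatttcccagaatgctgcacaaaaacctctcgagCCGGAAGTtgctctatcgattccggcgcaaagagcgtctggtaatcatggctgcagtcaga
Mrpl12: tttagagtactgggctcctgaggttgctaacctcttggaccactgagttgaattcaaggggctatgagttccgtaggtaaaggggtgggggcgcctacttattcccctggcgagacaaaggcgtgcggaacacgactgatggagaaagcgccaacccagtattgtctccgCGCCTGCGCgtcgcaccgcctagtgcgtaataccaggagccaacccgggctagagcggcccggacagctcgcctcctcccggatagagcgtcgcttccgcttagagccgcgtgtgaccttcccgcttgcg
Mrps15: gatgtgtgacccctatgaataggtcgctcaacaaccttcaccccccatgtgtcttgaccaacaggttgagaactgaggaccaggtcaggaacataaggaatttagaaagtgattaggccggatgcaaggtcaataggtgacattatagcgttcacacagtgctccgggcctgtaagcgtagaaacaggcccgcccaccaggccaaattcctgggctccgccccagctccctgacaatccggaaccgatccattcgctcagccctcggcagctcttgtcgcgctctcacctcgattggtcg
NRF1 letters were also in windows of Mrpl39 (-0.16 at 70 nmol) and Mrpl45 (-0.10), which are among the lowest large subunit differences. Both values lie within the scanner error, and a second Mrpl45 probe was at 0.12. Whether the letters go with the differences was not tested.

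Many members lie head to head with another gene, that is, on opposite strands with starts that point away from each other. With starts at most 1000 bases apart, 23 of the 66 members with a window (34.8%) had a protein-coding partner, against 1483 of 17491 protein-coding genes (8.48%). The table does not hold every gene, so both are counts within it. Mrpl46 and Mrps11 are partners of each other, with starts 42 bases apart, and so join the 2 subunits. Their differences were 0.02 (Mrpl46) and 0.06 (Mrps11) at 70 nmol and 0.05 and -0.03 at 35 nmol. Other partners also serve mitochondria: Mrps12 lies 147 bases from Sars2, the mitochondrial seryl-tRNA synthetase (0.18 at 70 nmol, beside 0.04 for Mrps12), and Mrpl43 lies 116 bases from Twnk, the helicase of mitochondrial DNA (-0.25, beside -0.01 for Mrpl43). Mrpl47 lies 308 bases from Ndufb5, a subunit of respiratory complex I (-0.16, beside 0.02 for Mrpl47). The partner of Mrps18b is Ppp1r10, 756 bases away, which was at -0.12 at 70 nmol where Mrps18b was at 0.84.

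**Figure D5:**
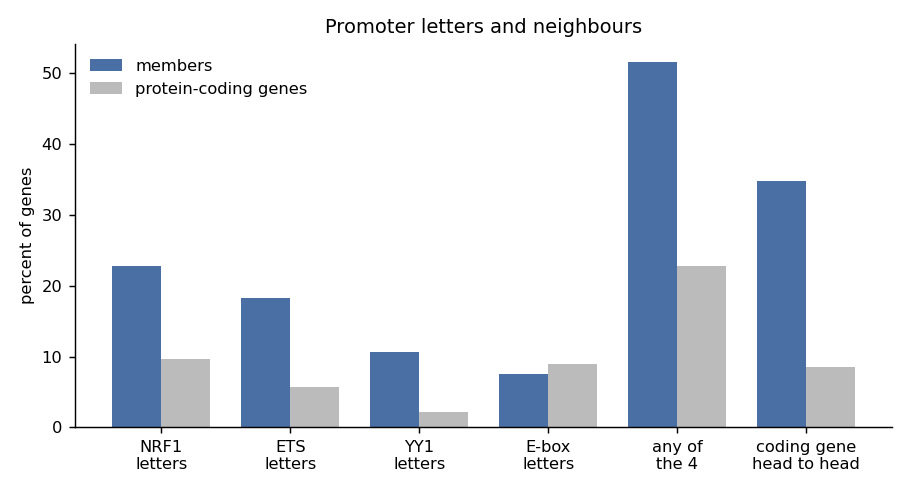
Bars give the percent of genes with a promoter window that holds the letters searched for, and at far right the percent of genes with a protein-coding gene head to head within 1000 bases, for the mitochondrial ribosomal protein genes (blue) and for protein-coding genes (grey). The vertical axis starts at 0. The blue bar is higher in each pair but that of the E-box (7.58% against 8.91%).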

How the data were processed

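Spot intensities were extracted by the authors with Agilent Feature Extraction 10.5.1.1, per the file headers, and intensity was read from the deposited columns for processed signal, signal error, mean signal and local background. The authors also deposited a log2 value table. Each column of it is the log2 processed signal less a constant (8.00, 7.61 and 7.67 for the control, 35 nmol and 70 nmol arrays), within 0.01 for at least 99.8% of detected probes. Its column medians are -3.60, -3.74 and -3.78, so scale and direction are known and genes are not centred. Probe positions are those of build mm8, per the file headers.

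From the scanner files, the 75th percentile over 43379 non-control spots (8.07, 7.69 and 7.74) was subtracted from the log2 signal of each array, outlier spots were dropped, and repeated spots were averaged per probe. Of 41174 probes, 24367 were named by accession through RefSeq (GRCm38.p6) and 8075 retained the array's own name. A gene was read by the brightest of its probes that the scanner software flagged as well above background on 1 array or more. For a comparison it had to carry that flag on both arrays, with no saturated or outlier spot. Fold rules were 2-fold and 1.5-fold, with no test. The members, the gene lists and the rule for named genes were chosen with earlier results of these data known. That rule takes, per subunit, the 5 highest and 5 lowest differences at each dose and 3 each way between doses, members past 1.5-fold or with discordant probes, the Mrps18 paralogs, and from other lists the 2 highest and lowest. It selects 48 members, not all of which are described in full.

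Other settings tried were background correction by normexp with an offset of 50, cyclic loess or quantile normalisation, scaling on spike-in RNA (4 of 10 probes, between 8 and 14 on the log2 scale) or on the detected probes' median, a looser or stricter filter on dim probes, averaging all probes of a gene, the deposited table, and a promoter window of 200 bases before the start. The mean over probes on the strand of the gene, and counting promoter letters once per gene, were added after the data were seen. Steps were tested on simulated data. Protein sequences were not analysed here. Software was limma 3.58.1 in R 4.3.3, and numpy 2.4.6, pandas 2.3.3 and matplotlib 3.10.9 in Python 3.11.15.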

Additional observations from a re-analysis of the deposited data

How the results depend on the processing

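With the filter on dim probes removed, the shifts of the subunits from the all-gene median turned negative: -0.0688 (large) and -0.0739 (small) at 70 nmol against the control, and -0.0267 and -0.0412 at 35 nmol. The members' own medians stayed as they were, while the median of all genes, now 27485 at 70 nmol, moved to 0.14 there and 0.12 at 35 nmol. Under the 9 other settings the 4 shifts against the control lay between -0.02 and 0.05. Slight negative values came from normexp in 3 of the 4 and, at 70 nmol, from cyclic loess in the large and quantile normalisation in the small subunit, and with quantile normalisation 39 members lay above and 36 below the all-gene median at 70 nmol. Mrps18b no longer passed 1.5-fold at 70 nmol with normexp (0.53), spike-in scaling (0.48), the stricter filter (not kept) and the mean over all its probes (0.36), which left 0 members at least 1.5-fold higher under each of these. The last mean includes the probe on the opposite strand, and over probes on the strand of the gene, a setting chosen after seeing the data, the value was 0.84. Spike-in scaling moved the median of all genes to -0.32 at 70 nmol and -0.38 at 35 nmol, and that of the members with it to -0.29 and -0.34. It gave 2 members at least 1.5-fold lower at 70 nmol against the control and 1 at least 1.5-fold higher between 70 and 35 nmol, where the main setting had 0 of each. Whether total message per cell differed was not tested. Of 948 differences of 48 named members under an alternative, 840 stayed within their technical error, 108 moved (96 of them under spike-in scaling) and the 1 member past 1.5-fold at 70 nmol kept its sign under every setting that measured it. The shorter promoter window left 34 of 72 windows with a match, against 36; counting each gene once, which was chosen after seeing the data, gave 34 of 66 genes. No paired analysis was possible because each group has 1 array. Spread between animals is unknown, and signal over background limits Mrps18b most, as its probe is the dimmest of those used.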
